A study of Mus musculus with 15 samples.

Results

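The 10 genes described here are goblet cell and mucin genes, chosen by name from the 54418 genes of a count table of mouse colon cancer organoids: Agr2, Creb3l1, Fcgbp, Muc2, Tff3, Atoh1, Spdef, Muc1, Muc4 and Muc13. The 15 RNA-seq libraries come from organoids, tumour cells grown in culture as small three-dimensional bodies, of the genotype labelled AKP, which all groups share. C57Bl6 mice were the recipients of the organoids, which were placed in the colon, and new organoids were grown from liver metastases and from primary tumours over successive rounds. The groups were metastasis organoids of rounds 1, 2 and 3 (Met1, Met2 and Met3) and primary tumour organoids of rounds 2 and 3 (Primary2 and Primary3), with 3 libraries each. The labels do not say if replicates came from different mice, different lines or repeat cultures, so p-values measure the spread between these libraries, which may be technical. The age of the animals, the alleles behind the name AKP and what drives them were not stated in these labels.

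Goblet cells are the secretory cells that make the mucus of the intestine. Atoh1 commits a progenitor to the secretory lineages where Notch signalling is low, and Spdef, an ETS transcription factor, acts downstream in the maturation of goblet cells, which fold the gel-forming mucin Muc2 in the endoplasmic reticulum with the help of Agr2 and secrete it together with Tff3 and Fcgbp. Muc1, Muc4 and Muc13 are transmembrane mucins of the glycocalyx, the sugar coat of the apical cell surface, and are not restricted to goblet cells.

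Total counts ran from 14122203 to 21306543 per library. Levels are given as CPM, read counts relative to the library size after TMM scaling, and changes as fitted log2 values with their standard error (SE) from edgeR's quasi-likelihood test, with p-values adjusted by Benjamini-Hochberg over the 14925 genes that passed a filter on low counts and called under 0.05. Agr2, Creb3l1, Fcgbp, Muc1, Muc4 and Muc13 passed the filter, so 6 of the 10 genes were tested. Metastasis against primary sets the mean of Met2 and Met3 against the mean of Primary2 and Primary3, 6 against 6 libraries, because Met1 has no primary group of its own round. One library stood apart: Met2 replicate 1 scored -53.2 on principal component 3 (8.03% of the variance), against -3.52 to 23.2 for the other libraries. It held no count of 6 of the 10 genes, where the others lacked 0 to 4. On components 1 and 2 (42.9% and 24.9%) it scored 7.17 and 33.7, closer to Met1 than to the rest of Met2. Met1 had -28 to -6.84 and 36.5 to 55.2. Met2 replicate 2 had 40.3 and -1.4, and Met2 replicate 3 had 48.1 and -9.48. Because RNA was measured in bulk, fewer cells of a type and less RNA per cell cannot be told apart.

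The name goblet cell was checked against a list of 10 markers, which did not behave alike. Over all 15 libraries Muc2 came to 33 counts, Spdef to 50, Atoh1 to 20 and Tff3 to 11. Of the other goblet cell markers, Zg16 averaged at most 0.311 CPM and Retnlb at most 0.0393 CPM in any group. Other markers of the list were present, unevenly over the groups. Agr2 averaged 254 CPM in Met3, its highest group, and 9.27 CPM in Primary3, its lowest. Clca1 averaged 0.126 CPM in Met1, 7.45 in Met2, 28.2 in Met3, 3.89 in Primary2 and 1.75 in Primary3. Fcgbp averaged 1.59 CPM in Met1, 3.01 in Met2, 11.9 in Met3, 3.14 in Primary2 and 1.26 in Primary3. Creb3l1 averaged 1.76 CPM in Met1 and 0.049 to 0.263 CPM in the other groups. The epithelial marker Epcam averaged 807 to 988 CPM over the 5 groups. Of 20 markers of stromal, endothelial, immune and liver cells 1 passed the filter. Their summed level was 1.75 to 7.26 CPM in Met1, 0.709 to 6.03 CPM in Met2 and 0.419 to 1.27 CPM in Met3. It was 0.88 to 2.26 CPM in Primary2 and 0.835 to 1.59 CPM in Primary3. The liver gene Alb, named after its values were seen, had 184 counts in Met1 (3.02 ± 2.39 CPM, SD, n = 3). It had 1 in Met2, 1 in Met3, 14 in Primary2 and 2 in Primary3. Since Muc2, Tff3, Atoh1 and Spdef were near 0, the genes are described by name and not as a measure of goblet cells.

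The promoters of the 3 genes that passed the test between metastasis and primary organoids are shown here, since these genes carry the differences described below. RefSeq's GRCm38.p6 table, with windows of 300 bases from 250 before to 50 after a start, held 9 promoters of 8 of the 10 genes, and Creb3l1 and Tff3 were not matched. Capitals mark TTTATG, a motif of CDX factors, or TGATAG or TGATAA, motifs of GATA factors, here all read on the minus strand. All 4 windows lie on the plus strand, and are printed 5′ to 3′.
Muc1 promoter, chr3:89228806-89229105: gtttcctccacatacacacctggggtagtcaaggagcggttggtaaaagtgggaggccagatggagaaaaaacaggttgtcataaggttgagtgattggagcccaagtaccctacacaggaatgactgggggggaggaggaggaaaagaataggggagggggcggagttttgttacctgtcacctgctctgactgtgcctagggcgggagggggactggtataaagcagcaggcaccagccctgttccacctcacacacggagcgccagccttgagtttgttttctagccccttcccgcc
Agr2 promoter, chr12:35992675-35992974: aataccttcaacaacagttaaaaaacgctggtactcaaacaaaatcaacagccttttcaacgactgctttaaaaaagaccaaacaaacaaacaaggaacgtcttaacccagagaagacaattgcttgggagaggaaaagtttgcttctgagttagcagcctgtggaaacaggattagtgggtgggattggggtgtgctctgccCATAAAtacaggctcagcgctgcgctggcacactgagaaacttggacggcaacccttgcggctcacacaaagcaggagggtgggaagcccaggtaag
Muc13 promoter, first start, chr16:33793787-33794086: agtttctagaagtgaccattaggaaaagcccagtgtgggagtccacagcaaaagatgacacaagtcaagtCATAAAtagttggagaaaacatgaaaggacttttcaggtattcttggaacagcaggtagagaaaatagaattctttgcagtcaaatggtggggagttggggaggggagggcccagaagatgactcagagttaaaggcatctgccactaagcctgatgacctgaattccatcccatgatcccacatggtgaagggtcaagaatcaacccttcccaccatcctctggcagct
Muc13 promoter, second start, chr16:33794239-33794538: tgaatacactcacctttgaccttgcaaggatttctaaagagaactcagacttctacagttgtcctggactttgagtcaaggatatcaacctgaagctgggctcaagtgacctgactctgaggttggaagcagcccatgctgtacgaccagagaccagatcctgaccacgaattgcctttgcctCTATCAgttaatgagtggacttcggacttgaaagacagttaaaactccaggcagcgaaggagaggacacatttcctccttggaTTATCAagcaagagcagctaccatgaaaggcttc

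The search covered both strands. AGATAA and TGATAA were searched as motifs of GATA factors. Their forms ending in G, AGATAG and TGATAG, were searched too. The CDX motif was TTTATG and the E-box was CAGCTG, which reads the same on both strands. For ETS factors of the Spdef kind the letters were GGATGT. The 4 GATA motifs share the core letters GATA. The Muc1 window held none of these motifs. The Agr2 window and the first Muc13 window each held TTTATG, which 11.9% of 32851 promoters of the same length hold. The second Muc13 window held TGATAG and TGATAA, and 29.8% of all promoters hold at least 1 of the 4 GATA motifs. The E-box was found in 16.3% and the ETS motif in 11.1% of all promoters. Among the windows not printed, that of Spdef held 1 CDX motif, and those of Muc2 and Muc4 held 3 and 2 GATA motifs. Muc2 and Fcgbp each held 1 E-box, Muc2 and Muc4 each held 1 ETS motif, and Atoh1 held none of these motifs. A match is a description of the letters and not a bound site.

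In metastasis against primary, 3 of the 6 tested genes were called, where 30.4% of all tested genes were. Agr2 and Muc13 were higher in metastasis organoids, as were 14.3% of all genes, and Muc1 was lower, as were 16.1%. The median fitted change of the 6 genes was 0.86, against 0.01 over all genes tested. In 2 of the 6 genes, Agr2 and Muc1, the metastasis and primary libraries did not overlap, as in 12.2% of all genes tested.

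**Figure D1:**
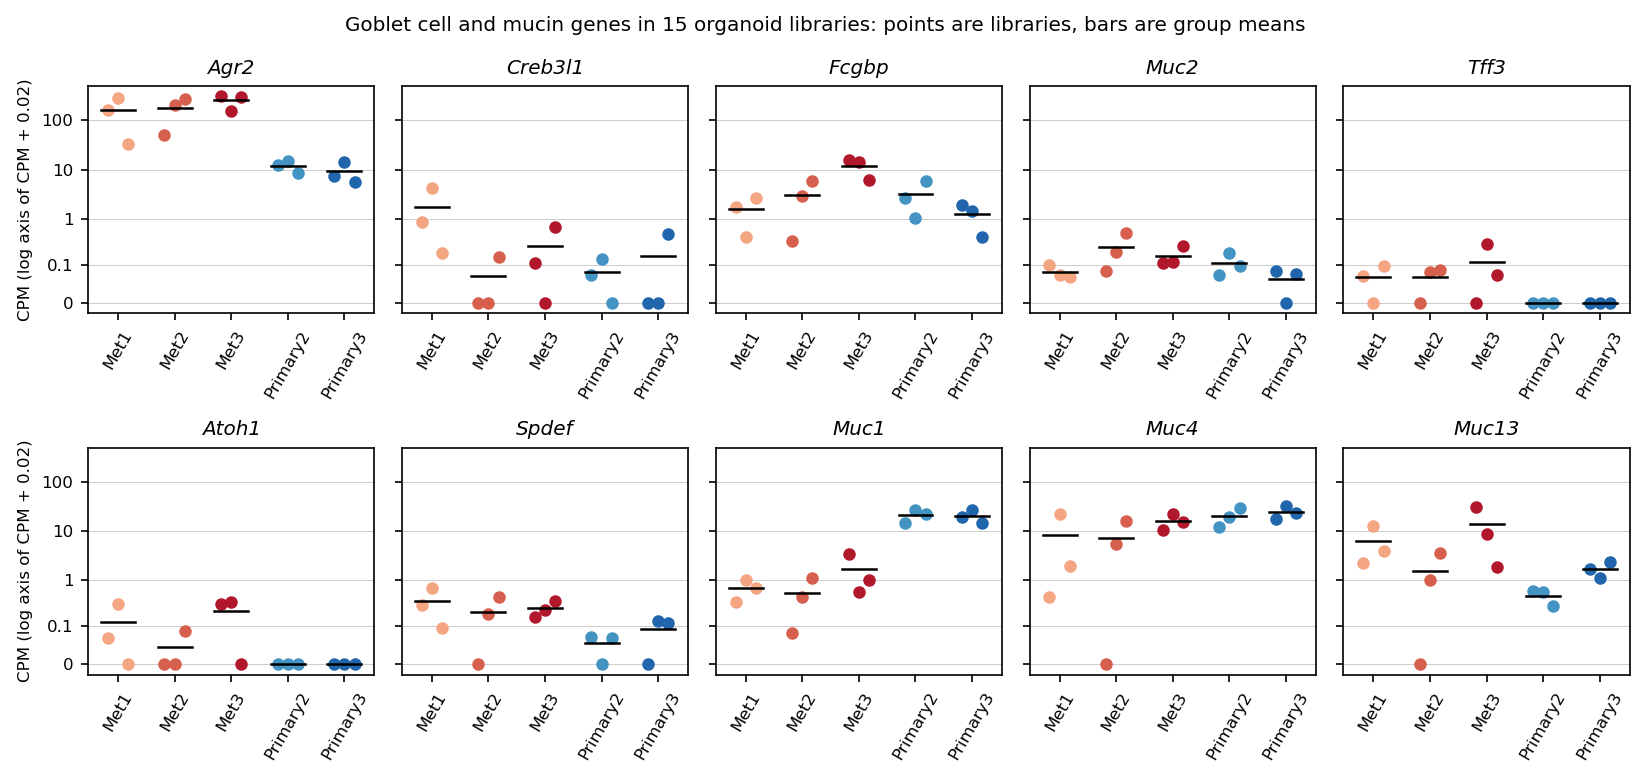
Level of each of the 10 genes in CPM (vertical axis, logarithmic, with 0.02 CPM added) in the 15 libraries, by group. Points are libraries and horizontal bars are group means. Agr2 lies higher in all Met2 and Met3 libraries than in any primary library, Muc1 lies lower, and Muc2, Tff3, Atoh1 and Spdef stay under 0.7 CPM throughout.

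Agr2 (ENSMUSG00000020581, chromosome 12, 35992907 to 36004087 on GRCm38) encodes a protein disulfide isomerase of the endoplasmic reticulum that Muc2 needs for its folding. Agr2 had 166, 282 and 33.5 CPM in Met1, 49.5, 203 and 277 CPM in Met2, 307, 154 and 301 CPM in Met3, 12.4, 15.1 and 8.44 CPM in Primary2 and 7.62, 14.6 and 5.6 CPM in Primary3. Every metastasis library was above every primary library, and Met1 replicate 3 and Met2 replicate 1 were the lowest of the metastasis libraries. The group means were 160 ± 124 CPM in Met1, 176 ± 116 CPM in Met2, 254 ± 86.5 CPM in Met3, 11.9 ± 3.33 CPM in Primary2 and 9.27 ± 4.72 CPM in Primary3 (SD, n = 3 each). Agr2 rose by 4.33 on the log2 scale in metastasis against primary organoids (SE 0.55, edgeR adjusted p = 0.000203), and adjusted p-values lay between 3.41e-19 and 0.00119 over 25 alternative settings. Without Met2 replicate 1 the change was 4.55 (adjusted p = 6.64e-05).

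Within rounds, 2 of the 6 genes were called in Met2 against Primary2, where 11.8% of all genes were, and 3 of 6 in Met3 against Primary3, where 19.1% were. Agr2 and Muc1 were called in both, and in both their groups did not overlap, as in 29.6% of all genes in round 2 and 44.4% in round 3. Its change was 3.88 (SE 0.76, adjusted p = 0.00943) in Met2 against Primary2 and 4.78 (SE 0.80, adjusted p = 0.00257) in Met3 against Primary3. With the share of ribosomal RNA gene counts as a covariate, the Agr2 change in Met2 against Primary2 was 3.56 and not called (adjusted p = 0.16, range 1.44e-07 to 0.16 over 24 alternatives), in a fit that called 0.75% of all genes. That share was 6.24% to 7.52% in Met2 and 3.74% to 3.83% in Primary2, and its part in the result was not tested further. Agr2 did not pass between metastasis rounds, with changes of 0.14 (SE 0.67, adjusted p = 0.91) in Met2 against Met1 and 0.66 (SE 0.68, adjusted p = 0.501) in Met3 against Met1.

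Creb3l1 (ENSMUSG00000027230, chromosome 2, 91982328 to 92024502) encodes a membrane-bound transcription factor of the endoplasmic reticulum and Golgi that serves secretory cells. Its counts summed to 101 in Met1, 2 in Met2, 15 in Met3, 4 in Primary2 and 8 in Primary3. Met1 replicate 2 was the highest library, at 4.24 CPM, and the other Met1 libraries had 0.852 and 0.183 CPM. The Met2 libraries had 0, 0 and 0.147 CPM and did not overlap with Met1, as in 32.7% of all genes tested, and the ratio of Met1 over Met2 was 36.7 (95% counting interval 9.89 to 307, counting error only). Of the 101 Met1 counts, 21 remained without Met1 replicate 2, and the ratio was then 11.1 (2.7 to 97.3). It was 24.2 without Met2 replicate 1 and 23.7 without replicate 2. Without Met2 replicate 3, Met2 held 0 counts, and Met1 was 16.9-fold higher with Met2 set at the floor of 3 counts. The fitted change in Met2 against Met1 was -5.05 (SE 1.79, adjusted p = 0.0697, range 0.0559 to 0.291 over alternatives), which misses the threshold. In metastasis against primary it was 0.13 (SE 1.72, adjusted p = 0.965).

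Fcgbp (ENSMUSG00000047730, chromosome 7, 28071236 to 28120862) encodes a large secreted protein of the mucus layer. It had 1.75, 0.424 and 2.61 CPM in Met1, 0.335, 2.9 and 5.8 CPM in Met2, 15.4, 14.2 and 6.08 CPM in Met3, 2.63, 1.02 and 5.78 CPM in Primary2 and 1.95, 1.41 and 0.412 CPM in Primary3. The 3 Met3 libraries were above every other library, though Met3 replicate 3, at 6.08 CPM, was close to Met2 replicate 3 and Primary2 replicate 3. Fcgbp rose by 3.24 in Met3 against Primary3 (SE 0.97, adjusted p = 0.0344), where the groups did not overlap, as in 44.4% of genes. In metastasis against primary the change was 1.59 (SE 0.65, adjusted p = 0.0796) and in Met2 against Primary2 it was -0.07 (SE 0.89, adjusted p = 0.972).

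The difference between the rounds in Fcgbp was 3.30 (SE 1.29, edgeR adjusted p = 0.355), so the effect in round 3 was not shown to differ from that in round 2. None of the 6 genes was called in that difference by edgeR, DESeq2 or limma-voom, where 0%, 1.51% and 0% of all genes were called. With each tool 1 of the 6 had an unadjusted p under 0.05. Of all 14925 genes, 1817 had one with edgeR, 2011 with DESeq2 and 1628 with limma-voom. Fcgbp also rose in Met3 against Met1, by 2.89 (SE 0.94, adjusted p = 0.0428), the only call among the 6 genes there, where 23.4% of all genes were called, and the groups did not overlap, as in 44.5% of genes. The Met3 against Primary3 call was lost without Met3 replicate 1 (adjusted p = 0.0877) or 2 (0.0761) and without Primary3 replicate 1 (0.0637), 2 (0.0943) or 3 (0.124), and with the ribosomal RNA covariate (0.104). Over the 24 alternatives its adjusted p ran from 0.00237 to 0.124. The Met3 against Met1 call was lost without any 1 of the Met1 libraries (0.0964, 0.134 and 0.0606 for replicates 1, 2 and 3), any 1 of the Met3 libraries (0.102, 0.0881 and 0.0502), Met2 replicate 2 (0.051), Primary2 replicate 1 (0.0539) or Primary3 replicate 1 (0.051) or 2 (0.0582), and with the covariate (0.0562), in a range of 0.00613 to 0.134. Without the Met2, Primary2 or Primary3 libraries named here, which are outside that comparison, the change stayed at 2.89. In metastasis against primary Fcgbp passed with DESeq2 (0.0333) and without Met2 replicate 1 (0.0212), in a range of 0.0212 to 0.247.

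Muc2 (ENSMUSG00000025515, chromosome 7, 141690340 to 141754693) encodes the gel-forming mucin that builds intestinal mucus. It was near the limit of detection in every library. Its counts summed to 4 in Met1, 11 in Met2, 9 in Met3, 7 in Primary2 and 2 in Primary3, and the highest library reached 0.514 CPM. Tff3 (ENSMUSG00000024029, chromosome 17, 31125306 to 31129646), the trefoil peptide secreted with Muc2, had 3 counts in Met1, 2 in Met2, 6 in Met3 and 0 in both primary groups. A group without counts allows up to 3 counts, equal to 0.0489 CPM in Primary2 and 0.0633 CPM in Primary3.

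Atoh1 (ENSMUSG00000073043, chromosome 6, 64729125 to 64731245) had 7 counts in Met1, 1 in Met2, 12 in Met3 and 0 in Primary2 and Primary3. Most of these came from 3 libraries, Met1 replicate 2, Met3 replicate 1 and Met3 replicate 2, with 6 counts each. Spdef (ENSMUSG00000024215, chromosome 17, 27714352 to 27728955) had 21 counts in Met1, 9 in Met2, 14 in Met3, 2 in Primary2 and 4 in Primary3, and at most 0.689 CPM in a library. Over Met2 and Met3 against both primary groups, Atoh1 had 13 against 0 counts and Tff3 8 against 0. With the primary side set at the floor of 3 counts, Atoh1 was 4.76-fold and Tff3 2.93-fold higher. The metastasis counts were taken as they stand, so these ratios are not full lower bounds, and the libraries of both genes overlapped. The Atoh1 ratio was 3.15 without Met3 replicate 1 and 3.1 without Met3 replicate 2. Without Met3 replicate 2, which held 5 of the 8 Tff3 counts, Tff3 had 3 against 0 counts, which gives no ratio. Spdef had 23 against 6 counts and Muc2 20 against 9. With no filter on low counts none of the 4 passed in metastasis against primary by edgeR over 32481 genes (adjusted p = 0.123 for Tff3, 0.149 for Spdef, 0.213 for Atoh1 and 0.248 for Muc2). In that fit 3 of the 4 had an unadjusted p under 0.05, where 7264 of the 32481 genes had.

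Muc1 (ENSMUSG00000042784, chromosome 3, 89229057 to 89233381), a transmembrane mucin with a signalling tail, had 0.351, 1.01 and 0.686 CPM in Met1, 0.067, 0.451 and 1.1 CPM in Met2, 3.45, 0.577 and 0.996 CPM in Met3, 14.5, 26.4 and 22.7 CPM in Primary2 and 19.1, 26.9 and 15 CPM in Primary3. All 9 metastasis libraries were below all 6 primary libraries. Muc1 fell by 4.45 on the log2 scale in metastasis against primary organoids (SE 0.53, adjusted p = 0.000143), with adjusted p-values of 6.38e-18 to 0.000611 over 25 alternatives. The change was -5.30 (SE 0.80, adjusted p = 0.00298) in Met2 against Primary2 and -3.59 (SE 0.71, adjusted p = 0.00557) in Met3 against Primary3. Both passed under all 24 alternatives run, with adjusted p-values up to 0.0437 and 0.0265. Between the primary groups the change of Muc1 was within its error (-0.06 in Primary3 against Primary2, SE 0.63, adjusted p = 0.992).

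Muc13 (ENSMUSG00000022824, chromosome 16, 33794037 to 33819934), a transmembrane mucin of the intestinal surface, had 2.25, 12.6 and 3.93 CPM in Met1, 0, 1.03 and 3.6 CPM in Met2, 31.5, 8.66 and 1.83 CPM in Met3, 0.591, 0.556 and 0.284 CPM in Primary2 and 1.68, 1.09 and 2.36 CPM in Primary3. The groups overlapped, and Met3 replicate 1 was the highest library. Muc13 rose by 2.35 in metastasis against primary (SE 0.84, adjusted p = 0.0495), just inside the threshold, and was called in 9 of 25 alternatives, with adjusted p-values of 0.00924 to 0.547. The change moved by over 1.5 times with limma-voom (1.14, adjusted p = 0.547). It was 1.6 without Met2 replicate 3 (0.173), 1.68 without Met3 replicate 1 (0.152) and 1.97 with the ribosomal RNA covariate (0.148), and not called in any of these. In the other fits that lost the call the change stayed between 2.22 and 2.5. These were the fit of only the groups compared (0.0566) and those without Met1 replicate 1 (0.0534) or 3 (0.0608), Met2 replicate 2 (0.0583) or Met3 replicate 2 (0.0617). Among them were also the fits without any 1 Primary2 library (0.0779, 0.0865 and 0.106) or Primary3 library (0.0929, 0.101 and 0.0771). In Met3 against Primary3 the change was 3.03 (SE 1.17, adjusted p = 0.0864), which passed with DESeq2 (0.024) and without Met2 replicate 1 (0.0335), in a range of 0.024 to 0.378.

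Muc4 (ENSMUSG00000079620, chromosome 16, 32735886 to 32782391), a large transmembrane mucin that can bind an ERBB receptor, did not pass in any comparison. It had 0.451, 22.3 and 1.97 CPM in Met1, 0, 5.48 and 16.2 CPM in Met2, 10.5, 22 and 15.5 CPM in Met3, 12.2, 19.5 and 30.2 CPM in Primary2 and 17.8, 32.8 and 23 CPM in Primary3. The ranges overlapped, and the spread among metastasis libraries was wide. The change in metastasis against primary was -1.07 (SE 0.85, adjusted p = 0.364). Muc4 shares 627 exon bases with Muc20 on the opposite strand, and Muc13 shares 184 with the antisense gene Gm15657. No source used here says that the counting used strand, so reads in the shared bases cannot be assigned with certainty.

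**Figure D2:**
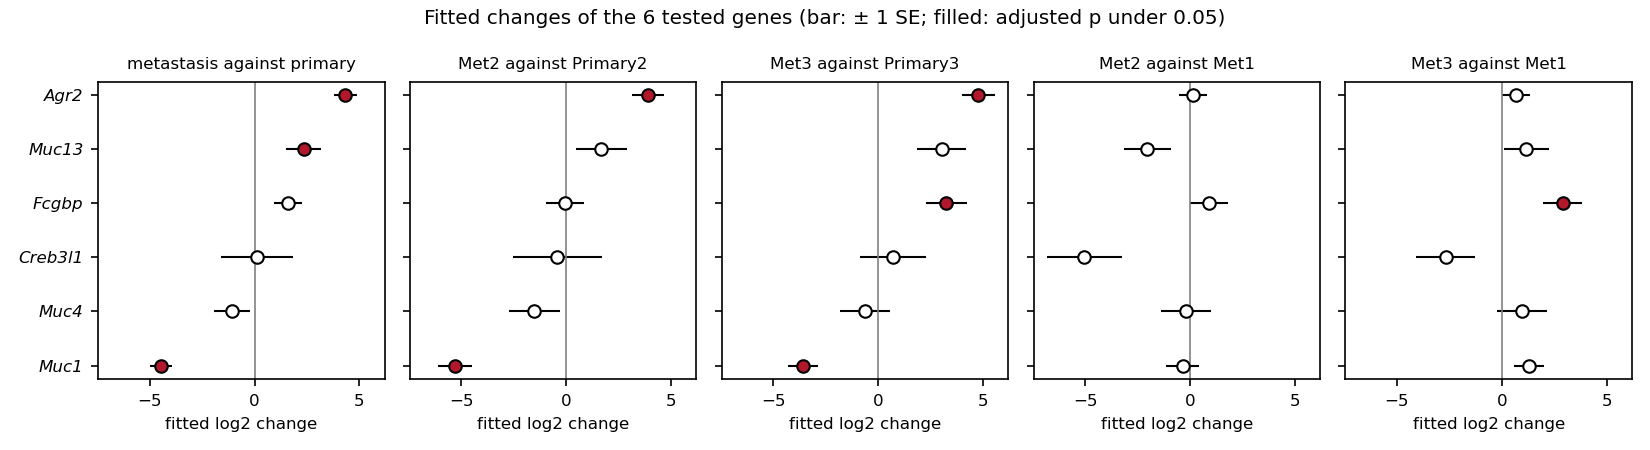
Fitted log2 change of the 6 tested genes in 5 comparisons (horizontal axis), with bars of 1 SE and filled points where the adjusted p was under 0.05. Muc1 (-4.45) and Agr2 (4.33) lie farthest from 0 in metastasis against primary.

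No gene of the 6 was called by edgeR, DESeq2 or limma-voom in Met2 against Met1, in Met3 against Met2 or in Primary3 against Primary2, where 16.3%, 0.275% and 0% of all genes were called by edgeR. At an unadjusted p under 0.05 there was 1 gene in Met2 against Met1 with each tool, and none in Primary3 against Primary2. In Met3 against Met2 there were 3 with edgeR, 3 with DESeq2 and 2 with limma-voom. Of all 14925 genes, edgeR gave an unadjusted p under 0.05 to 4902 in Met2 against Met1. It gave one to 2157 in Met3 against Met2 and to 1063 in Primary3 against Primary2. For Met3 against Met2, the number was 2401 with DESeq2 and 1912 with limma-voom. The libraries of Fcgbp did not overlap in Met3 against Met2, as in 15.4% of genes, and those of Muc13 did not overlap in Primary3 against Primary2, as in 16.7%.

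Per kilobase of exon, Agr2 was the highest of the 10 genes in 4 of 5 groups, at 124, 137 and 197 CPM per kb in Met1, Met2 and Met3 and 9.26 CPM per kb in Primary2. In Primary3 Muc1 was higher, at 8.66 against 7.18 CPM per kb for Agr2, and in Primary2 Muc1 had 9.04. In both primary groups that gap was smaller than the spread among libraries. Among the metastasis groups Muc13 was the highest transmembrane mucin of the 3 in Met1 (2.06) and Met3 (4.61 CPM per kb), and Muc4 in Met2 (0.613). The Met2 gap to Muc13 (0.508) was smaller than the spread among libraries. In Met3 the Muc13 mean rests mostly on replicate 1, with 31.5, 8.66 and 1.83 CPM in replicates 1, 2 and 3.

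The other mucins and goblet cell genes were counted by list, each beside the 30.4% of all genes called in metastasis against primary. Of 16 listed mucins 7 were tested, with 1 higher, 3 lower and a median change of -1.07. Besides Muc1, the lower ones were Mucl3, a mucin-like gene (-3.97, SE 0.65, adjusted p = 0.000893), and Muc20, a transmembrane mucin (-2.43, SE 0.74, adjusted p = 0.0254). Muc20 was high in Primary2 (17.8 ± 11.1 CPM) and not in Primary3 (1.25 ± 0.735 CPM; SD, n = 3 each). The count of called mucins was 2, with none higher, without Met3 replicate 1 or Primary2 replicate 2.

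Among 24 goblet cell products 12 were tested, with 5 higher, 1 lower and a median change of 1.53. Higher were Sytl2, a vesicle trafficking protein (3.30, SE 0.58, adjusted p = 0.00134), Atp2c2, a Golgi calcium pump (1.95, SE 0.38, adjusted p = 0.00258), Bcas1 (2.52, SE 0.56, adjusted p = 0.00502) and Clca1, a secreted protease of mucus (2.47, SE 0.81, adjusted p = 0.0357). Met2 replicate 1 was below every primary library in Sytl2 (2.55 CPM), Bcas1 (14.8 CPM) and Clca1 (0 CPM), and above every one in Atp2c2 (23.9 CPM). Named after their values were seen, Fer1l6 was the fifth that rose (1.31, SE 0.46, adjusted p = 0.0449), and Spink4, a secreted peptide of goblet cells, fell by 1.63 (SE 0.58, adjusted p = 0.0476). The count dropped to 3, all higher, without Met3 replicate 2, Primary2 replicate 1, or Primary3 replicate 1 or 2, and with the ribosomal RNA covariate. By round, 1 of the 12 was called in Met2 against Primary2 (8.33%, against 11.8% of all genes), and Clca1 was not (0.94, adjusted p = 0.613). In Met3 against Primary3 5 were called, all higher (41.7%, against 19.1% of all genes). None was called in the difference between rounds. Met1, which is outside these contrasts, averaged 39.9 CPM in Sytl2, 69.3 in Bcas1 and 7.81 in Atp2c2. Those means were 4.08, 48.9 and 11.2 CPM in Primary2 and 7.45, 31 and 10.3 CPM in Primary3. Against Met1, 4 of the 12 were called in Met2 (33.3%, against 16.3% of all genes) and 5 in Met3 (41.7%, against 23.4%), all higher. Of 26 genes of mucin O-glycosylation, the addition of sugars to mucins, 21 were tested, with 6 higher and 5 lower in metastasis against primary. Gcnt3 (2.20, SE 0.26, adjusted p = 0.000131) and Gcnt4 (3.0, SE 0.59, adjusted p = 0.00262), both branching enzymes, and the fucosyltransferase Fut2 (1.35, SE 0.17, adjusted p = 0.000202) rose, and Galnt1, which adds the first sugar, fell by 0.56 (SE 0.11, adjusted p = 0.00279).

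Of 22 genes of protein folding in goblet cells, all tested, 3 were higher and 3 lower, with a median of 0.10. Ern2, an endoplasmic reticulum stress sensor of mucous epithelia, rose by 3.23 (SE 0.65, adjusted p = 0.003), and Xbp1, the transcription factor of that stress pathway, by 0.57 (SE 0.15, adjusted p = 0.0117). Canx fell by 0.40 (SE 0.07, adjusted p = 0.0016) and Selenom by 1.83 (SE 0.38, adjusted p = 0.00383). Of 20 secretory transcription factors and Notch genes 16 were tested, with 5 higher and 3 lower. The intestinal factor Cdx2 (2.03, SE 0.18, adjusted p = 2.7e-05), Foxa1 (0.76, SE 0.10, adjusted p = 0.000259) and the Notch ligand Dll1 (3.57, SE 0.75, adjusted p = 0.00374) rose, and the receptor Notch1 fell by 2.78 (SE 0.53, adjusted p = 0.00216).

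**Figure D3:**
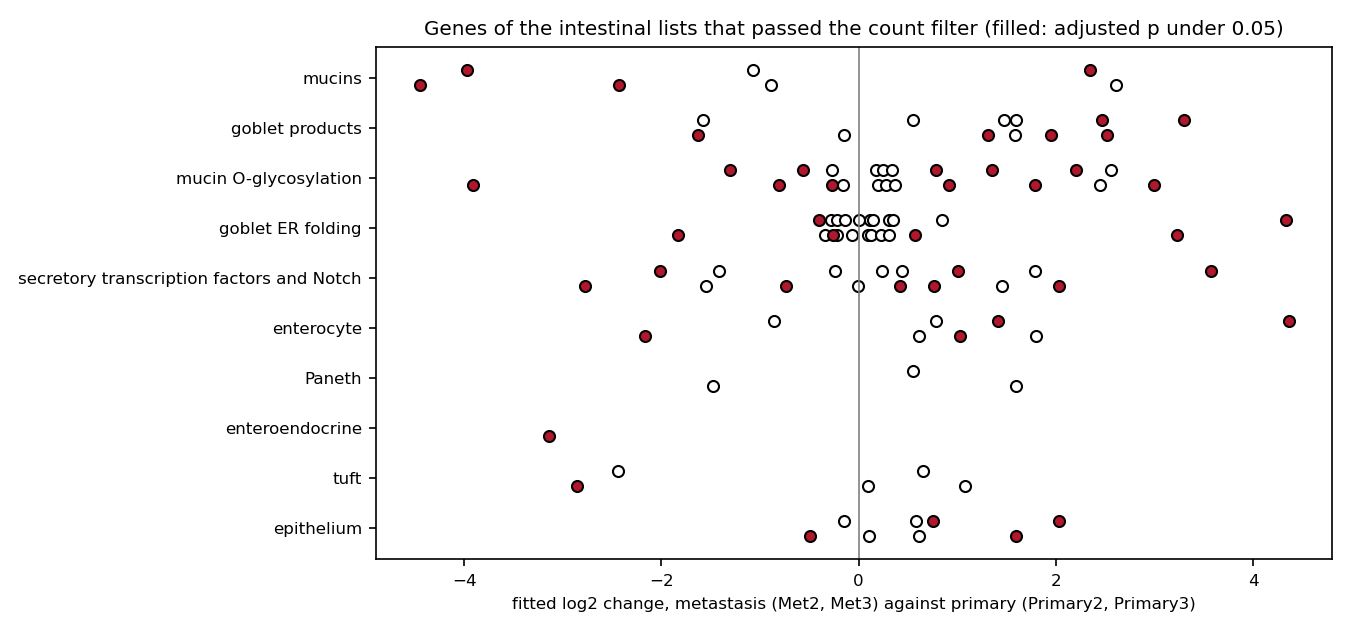
Fitted log2 change in metastasis against primary (horizontal axis) for each tested gene of 10 lists, filled where the adjusted p was under 0.05. Called genes lie on both sides of 0 in the mucin (1 higher, 3 lower) and O-glycosylation (6 higher, 5 lower) lists, and goblet cell products lie mostly to the right (5 higher, 1 lower).

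In the list of 10 goblet cell markers 4 were tested and 2 were higher, Agr2 and Clca1, with 1 called without Met2 or Met3 replicate 2 or 3, Primary2 replicate 1 or 2, or any 1 Primary3 library. Its summed level was 36.9 to 287 CPM in Met1, 49.9 to 297 CPM in Met2, 220 to 333 CPM in Met3, 17.3 to 21.2 CPM in Primary2 and 8.13 to 18.1 CPM in Primary3. Agr2 made up 70.1% to 99.2% of the sum in the metastasis libraries and 39.7% to 87.1% in the primary libraries, with the lowest share in Primary2 replicate 3.

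Lists of other cell types were counted beside the same 30.4% of all genes. In the enterocyte list 3 of 8 tested genes were higher and 1 lower, and 7 were called without Met2 replicate 1, where 34.3% of all genes were called. Higher were Car1 (4.36, SE 0.99, adjusted p = 0.00583), Ceacam1 (1.41, SE 0.32, adjusted p = 0.00598) and Fabp2 (1.03, SE 0.35, adjusted p = 0.0415). Car1 averaged 155 ± 216 CPM in Met3 and 12 ± 8.6 CPM in Met2 (SD, n = 3 each). Cdhr2 was lower (-2.17, SE 0.54, adjusted p = 0.00983). It averaged 7.76 CPM in Met2, 9.26 in Met3, 41.9 in Primary2 and 34.8 in Primary3, but 78.5 in Met1. Of 3 tested Paneth cell genes 0 were called by edgeR, DESeq2 or limma-voom, with 1 called without Met2 replicate 1 or Met3 replicate 3. In the main fit 0 of the 3 had an unadjusted edgeR p under 0.05, where 6286 of all 14925 genes had. The 1 enteroendocrine gene tested, Cpe, was lower (-3.14, SE 0.63, adjusted p = 0.00301). After leaving out any 1 library other than Primary3 replicate 2, 2 or 3 enteroendocrine genes were called, in fits whose rerun filter let more genes through. Of 5 tuft cell genes 1 was lower (Ptgs1, -2.86, SE 0.29, adjusted p = 5.56e-05), with 3 called without Met2 replicate 1 and 2 without Met3 replicate 3. Of 8 epithelial markers 3 were higher and 1 lower, and their summed level was 5660 to 14700 CPM in Met2, 11500 to 15100 CPM in Met3, 5750 to 8340 CPM in Primary2 and 6910 to 8110 CPM in Primary3. The part of these cell type markers in the changes of Agr2, Muc1 and Muc13 was not tested.

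Over the 15 libraries, the genes most like Agr2 in log2 CPM were Tmprss4 (Pearson r = 0.961), Nans (0.956) and Ppp2r5a (0.952), and those most like Muc1 were Atp9b (0.957), Tfap2b (0.934) and Cp (0.926). Agr2 and Muc1 had r = -0.749 with each other, and Muc1 and Muc4 r = 0.684. The libraries fall into groups that differ in these genes, so the values describe the pattern over groups, and no p-value is attached.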

How the data were processed

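RNA of 15 organoid libraries was sequenced after poly(A) selection with a directional kit, per the labels' protocols. The deposited table holds estimated counts per gene that the authors made with Salmon 1.3.0 on mm10, per the submitters' processing notes. All values are whole numbers; no source used here states the annotation, rounding or strand setting. Estimated counts of a gene that shares sequence with another can be split between them. Gene names and positions are from GENCODE M21 (GRCm38), which matched 54096 of 54418 IDs.

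Genes were tested with edgeR 4.0.16 under R 4.3.3 (TMM, filterByExpr by group, quasi-likelihood F test on group means, all 15 libraries in one fit), with Benjamini-Hochberg adjustment. Replicates varied with a dispersion of 0.118. The SE was computed from each log2 change and its F statistic. The fit was tested on simulated data. Alternatives were DESeq2 1.42.0, limma 3.58.1 voom, other size factors and filters, a ribosomal RNA covariate, a replicate block and leaving out each library. Each fit without 1 library ran the filter and the adjustment anew, over 15368 to 15456 genes. The floor is 3 counts over the group, and a ratio to it takes the counts of the other side as they stand. Floors and counting intervals cover counting error only.

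The 10 genes, the lists and the tests were chosen with earlier results of these data known. From each list except the epithelial markers, up to 4 other called genes with the smallest p in metastasis against primary were named. The 3 genes most like Agr2, the member with the highest mean level, and Muc1, the called member with the largest change, were named by Pearson correlation of log2 CPM.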

Additional observations from a re-analysis of the deposited data

How the results depend on the processing

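The calls of Muc1 and Agr2 in metastasis against primary kept their direction and side of the threshold under all 25 alternatives run. With the ribosomal RNA covariate, the count of called genes was 1 in Met2 against Primary2, where 0.75% of all genes were called, and 0 in Met3 against Met1, where 23.1% were, and leaving out 1 library gave 0 to 1 in Met3 against Met1. Counting Met1 among the metastases, chosen after seeing the data, gave -4.60 for Muc1 (adjusted p = 3.98e-05), 4.2 for Agr2 (0.000191) and 2.49 for Muc13 (0.0309).

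The labels do not say whether replicate numbers pair libraries. Same-numbered libraries had correlations of deviations of -0.126 to 0.268 over 30 pairs, with a median of 0.00761 and 8 pairs over 0.1. Of 15 libraries, 8 correlated best with their own number, a hint from the data and not the design. These values do not decide whether the numbers pair the libraries. With the replicate block 2 of the 6 genes were called in metastasis against primary, Muc13 being lost at a change of 2.36 (adjusted p = 0.0729), and 3 goblet cell products, where 30.1% of all genes were called.

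Directions that turned all belong to changes that were not called, and the cause was not tested. With the block, Fcgbp in Met2 against Primary2 was 0.01 and Muc4 in Met2 against Met1 0.01. With the covariate, Fcgbp in Met2 against Primary2 was 0.18, Muc4 in Met3 against Primary3 0.41, Agr2 in Met2 against Met1 -0.26, and in Primary3 against Primary2 Muc4 was -0.78 and Creb3l1 -1.22. Leaving out 1 library, the Creb3l1 change ran from -1.33 to 2.43 in metastasis against primary, -3.37 to 0.71 in Met2 against Primary2, -1.45 to 5.29 in Met3 against Primary3, -1.01 to 5.73 in the difference between rounds and -3.37 to 2.38 in Primary3 against Primary2. In Met2 against Met1, Agr2 ran from -0.34 to 0.82, Muc1 from -1.34 to 0.17 and Muc4 from -1.55 to 2.55. Fcgbp ran from -0.91 to 0.72 in Met2 against Primary2. Muc13 ran from -0.04 to 2.88 in the difference between rounds and -0.23 to 2.17 in Met3 against Met1. In Primary3 against Primary2, Muc1 ran from -0.32 to 0.13 and Muc4 from -0.02 to 0.63.

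A filter at 1 CPM in 3 libraries removed Creb3l1. Muc2, Tff3, Atoh1 and Spdef rest on 11 to 50 counts over all libraries, and none passed adjustment with no filter.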

Other observations

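Muc5ac, a gel-forming mucin of gastric surface cells, and Tff1, a gastric trefoil peptide, were chosen after their values were seen. Muc5ac had 0.2, 0 and 0.183 CPM in Met1, 0, 5.29 and 179 CPM in Met2, 34, 33.6 and 46.4 CPM in Met3, 0.752, 0.185 and 11.8 CPM in Primary2 and 22.4, 4.82 and 16.6 CPM in Primary3. The Met3 libraries were above all Met1 and primary libraries, and Met2 ran from 0 in replicate 1 to the highest value of all in replicate 3. Muc5ac rose by 8.10 on the log2 scale in Met3 against Met1 (SE 2.33, edgeR adjusted p = 0.0258) and did not pass in metastasis against primary (2.61, SE 1.13, adjusted p = 0.0965). Per kilobase it was the highest of the listed mucins in Met2, at 5.71 CPM per kb, a rank that rests on replicate 3: without it Muc5ac had 0.246 CPM per kb and Mucl3 0.633.

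Tff1 averaged 3.45 ± 1.56 CPM in Met1, 97.7 ± 92.1 CPM in Met2, 193 ± 208 CPM in Met3, 61.9 ± 59.2 CPM in Primary2 and 39.6 ± 23.7 CPM in Primary3 (SD, n = 3 each). All 3 Met1 libraries were below every other library. Tff1 rose by 5.8 in Met3 against Met1 (SE 1.21, adjusted p = 0.00603) and did not pass in metastasis against primary (1.47, SE 0.70, adjusted p = 0.128).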
